A study of Mus musculus with 24 samples.

Results

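The PYHIN genes are a family of interferon-inducible genes that lie beside each other on mouse chromosome 1. The 5 genes described here, of 18193 genes with a probe set of their own on the array, are Ifi209, Ifi203, Ifi204, Ifi205 and Aim2, which were chosen by the rise of Ifi209 with I-BET-762, seen in these arrays, and by their family. They were read from all probe sets whose only gene symbol is one of these 5, which gave 5 of the 45037 non-control probe sets and 4 of the 5 genes. Ifi209 has 2 of them (1435330_at and 1435331_at), and Ifi203 (1442828_at), Ifi204 (1419603_at) and Aim2 (1426619_at) have 1 each. Ifi205 has 0 of its own. A further 5 probe sets name a member together with other genes, 3 of them Ifi203, 2 of them Ifi205 and 1 of them Ifi204, and are given below by their number only.

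The cells were CD4+ T cells of C57BL/6 mice carrying the 2D2 transgenic T cell receptor, a receptor for a myelin antigen, so all 8 groups share that receptor. They were primed under Th1 conditions on plates coated with anti-CD3 and anti-CD28, taken off after 48 h and expanded for 2 more days. Priming took place with the solvent DMSO, with the control compound Control-768, or with I-BET-762 at 0.25 or 0.5 µM. RNA came either from these resting cells or from activated cells, which had been put back on the antibodies for 4 h, and each of the 8 groups has 3 arrays numbered 1 to 3. The concentration of Control-768 and the number of mice behind each replicate are not given in the sources used here. I-BET-762 blocks the bromodomains of the BET proteins, which bind acetylated histones and help RNA polymerase II into elongation.

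Most PYHIN proteins pair a pyrin domain, which binds other pyrin domains, with HIN domains, which bind DNA. AIM2 senses DNA in the cytosol and assembles an inflammasome through the adaptor ASC, while several of the p200 proteins of the mouse, among them those of Ifi203, Ifi204 and Ifi205, are largely nuclear and have been studied as regulators of transcription and the cell cycle. Most genes of the family respond to interferons, whose receptors act through STAT proteins on short promoter elements, the interferon-stimulated response element (ISRE) and the gamma-activated site (GAS). In T cells these genes are known as interferon-inducible and not as lineage genes. Less is known of the protein of Ifi209.

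The promoters show what the members share in sequence, since the members moved so differently in these cells. RefSeq's GRCm38.p6 table of promoters, from 250 bases before to 50 bases after each gene start, holds 12 of 13 PYHIN genes looked up and 4 of the 5 members. The promoter of Ifi209, chr1:173630609-173630908 on the plus strand, is given in full because Ifi209 was the member that rose, with its closest match to the ISRE core that aligns with its relatives in capitals.

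Ifi209: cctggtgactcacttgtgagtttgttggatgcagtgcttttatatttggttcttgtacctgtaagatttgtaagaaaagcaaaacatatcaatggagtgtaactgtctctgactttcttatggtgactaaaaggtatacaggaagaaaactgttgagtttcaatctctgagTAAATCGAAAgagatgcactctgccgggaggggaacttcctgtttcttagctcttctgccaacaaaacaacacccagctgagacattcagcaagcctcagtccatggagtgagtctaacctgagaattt

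The ISRE core was searched as GAAA, any 2 bases and GAAA again, the GAS as TTCNNNGAA, the E-box as CACGTG and the TATA box as TATAAA, all on both strands; a match to the ISRE core and one to the GAS can share bases. Counts in this family are of genes with a match in any promoter (12 genes, 14 promoters), while shares of the table are of promoters. The ISRE core was present in 9 of the 12 genes and in 3.44% of all 32851 promoters of the table. Windows around it, each on the strand of its gene, compare 2 members and 2 close relatives with Ifi209, and capitals mark the core.

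Ifi209, chr1:173630765-173630804, plus strand: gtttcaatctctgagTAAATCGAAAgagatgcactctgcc
Ifi214, chr1:173536012-173536051, minus strand: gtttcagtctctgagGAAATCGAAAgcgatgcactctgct
Ifi213, chr1:173599321-173599360, minus strand: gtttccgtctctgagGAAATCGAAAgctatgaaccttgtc
Ifi203, chr1:173942503-173942542, minus strand: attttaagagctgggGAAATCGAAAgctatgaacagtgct
Ifi205, chr1:174031865-174031904, minus strand: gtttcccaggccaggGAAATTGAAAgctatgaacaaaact

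Ifi209 did not hold the exact core. Its aligned stretch, starting at position -79 from the gene start, differed from the core by G1T, counted from 1 at the first base of the core. With at most 1 mismatch allowed, 35.4% of all promoters held the core, so such a stretch is common. Promoter 1 of Ifi203 held the exact core from position -35, and its promoter 2 held none. Ifi205 held the core at -134 and, on the other strand, at 24. Aim2 and Ifi202b held no exact core. The GAS letters, present in 8.3% of all promoters, were found in this family only in Ifi202b, and the E-box letters, present in 7.15%, in 0 of the 12 genes. The TATA box letters, present in 13.6% of all promoters, were found in 7 of the 12 genes, among them Ifi209 at position -212 on the other strand and Ifi205 at 11, also on the other strand. A match is a string of letters in this window and no measurement of binding.

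Ifi209 was the member whose level followed I-BET-762, and it did so to an unequal degree among the replicates. The values that follow chose the members, so they are a description with no test. At probe set 1435330_at, resting cells had intensities of 76.4, 64.6 and 135 in DMSO on arrays 1, 2 and 3, and 97.8, 75.3 and 135 in Control-768. With 0.25 µM I-BET-762 the same probe set read 275, 107 and 306, and with 0.5 µM it read 944, 386 and 2291. The groups of the 2 controls lay in the same range, array 2 at 0.25 µM lay among the controls, and all 3 arrays at 0.5 µM lay above every other resting array.

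Activated cells read far lower. Probe set 1435330_at gave 14.1, 9.88 and 12.8 in DMSO, 17.04, 18.0 and 22.6 in Control-768, 26.2, 22.6 and 48.3 at 0.25 µM, and 106, 67.0 and 72.2 at 0.5 µM. At 0.5 µM all 3 arrays lay above every array of the other 3 activated groups. The values of both control groups are close to the constant of 16 that was added before taking logs, so small differences among them carry little information.

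The second Ifi209 probe set, 1435331_at, reads the same RNA samples and is no replicate of the first. In resting cells it read 78.6, 89.4 and 173 in DMSO, 82.0, 74.5 and 173 in Control-768, 234, 127 and 433 at 0.25 µM, and 860, 393 and 3464 at 0.5 µM. Activated cells gave 6.66, 16.9 and 16.5 in DMSO, 16.5, 12.1 and 25.2 in Control-768, 36.0, 29.0 and 82.4 at 0.25 µM, and 117, 72.9 and 177 at 0.5 µM. Here the lowest array at 0.5 µM overlapped the highest at 0.25 µM in both states, while 0.5 µM and Control-768 did not overlap in either. Over the 24 arrays the log2 values of both probe sets had a Pearson r of 0.981, and of 0.897 after the mean of each group was removed.

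**Figure D1:**
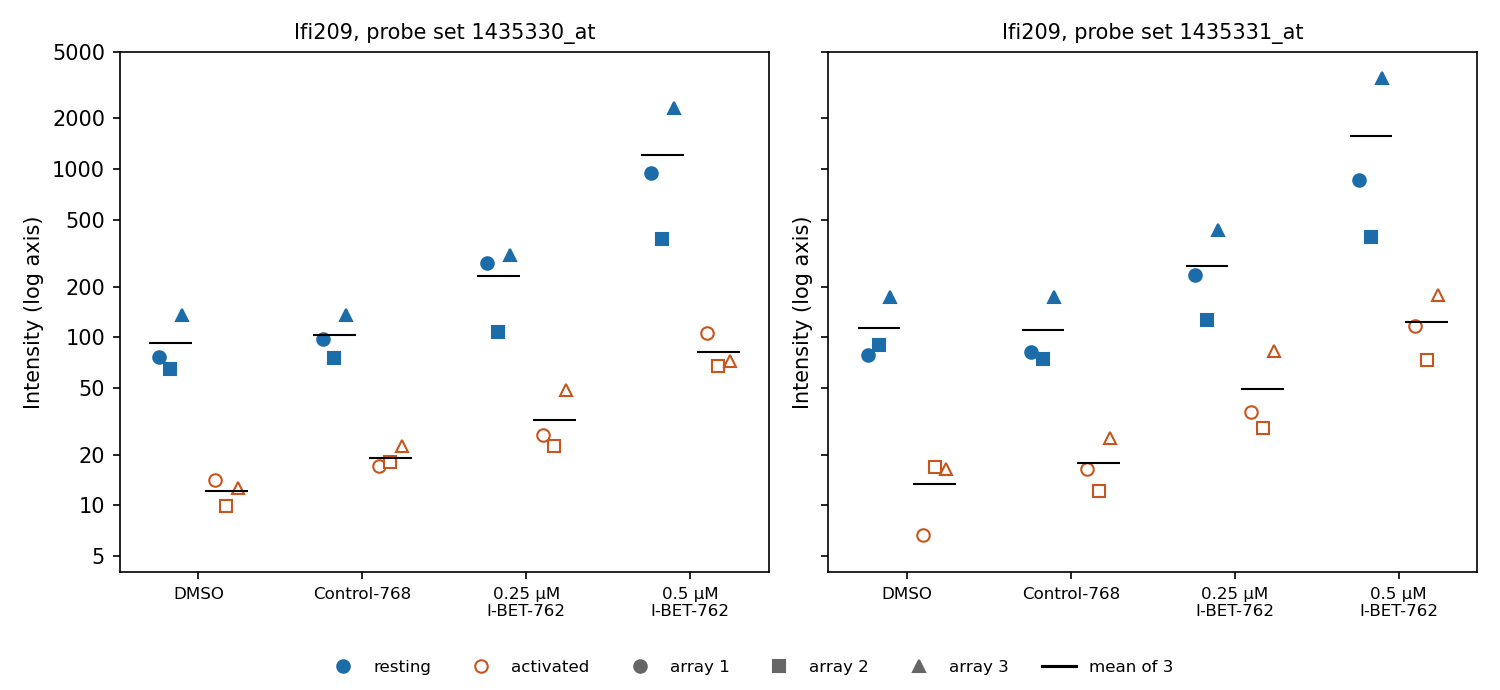
Intensity of both Ifi209 probe sets on each of the 24 arrays (vertical log axis) by priming medium; filled blue symbols are resting cells, open orange symbols activated cells, the symbol shape is the array number and the line is the mean of 3. At 0.5 µM I-BET-762 the resting arrays of 1435330_at lie between 386 and 2291, with array 3 highest and array 2 lowest.

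Group means rose with the concentration. For 1435330_at the resting means were 92.1 ± 37.9 (SD, n = 3) in DMSO, 103 ± 30.0 in Control-768, 230 ± 107 at 0.25 µM and 1207 ± 979 at 0.5 µM. The activated means were 12.3 ± 2.16, 19.2 ± 2.95, 32.4 ± 13.9 and 81.6 ± 20.9 in the same order. The mean at 0.5 µM was 11.8 times that in Control-768 in resting cells and 4.25 times in activated cells, and for 1435331_at it was 14.3 times and 6.83 times. The activated ratios rest on Control-768 means near the added constant, and with a constant of 64 the log2 differences in activated cells, 1.45 and 1.98 with 16 added, were 0.80 and 1.15. At 0.25 µM the ratios were 2.24 and 1.69 for 1435330_at and 2.41 and 2.74 for 1435331_at. Of neighbouring groups in this order, DMSO and Control-768 overlapped in resting cells with both probe sets, as did Control-768 and 0.25 µM. In activated cells the arrays at 0.25 µM all lay above those of Control-768 with both probe sets.

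On the log2 scale with 16 added, 1435330_at differed from Control-768 at 0.5 µM by 3.05 ± 0.44 (SE) in resting and 1.45 ± 0.44 in activated cells. For 1435331_at the differences were 3.18 ± 0.56 and 1.98 ± 0.56. In resting cells at 0.5 µM these differences stood at ranks 3 and 2 from the top of all 45037 probe sets, and in activated cells at ranks 28 and 11. At 0.25 µM the differences were 0.96 and 1.09 in resting cells, at ranks 35 and 19, and 0.42 and 0.87 in activated cells, at ranks 829 and 41. Between 0.25 and 0.5 µM in resting cells, where the controls play no part, the differences were 2.09 for both probe sets, at ranks 2 and 1. Groups at 0.5 µM that lie wholly above Control-768 were found at 6.33% of all probe sets in resting and 6.09% in activated cells, and groups at 0.25 µM at 4.47% and 5.14%. Groups at 0.5 µM that lie wholly above 0.25 µM were found at 4.80% in resting and 4.84% in activated cells. These shares are the background for such a separation and no test of Ifi209.

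In resting cells the order of the arrays repeated from medium to medium. There array 3 was the highest in 4 of 4 media with both probe sets, and array 2 the lowest in 4 of 4 with 1435330_at and in 3 of 4 with 1435331_at. Set against the Control-768 array of the same number, resting 1435330_at at 0.5 µM was 9.66 times as high on array 1, 5.13 times on array 2 and 17 times on array 3. The same ratios for 1435331_at were 10.5, 5.28 and 20.04. At 0.25 µM they were 2.82, 1.43 and 2.27 for 1435330_at and 2.86, 1.71 and 2.51 for 1435331_at, so array 2 had the smallest ratio at both concentrations.

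In activated cells the order of the numbers was kept in part. Array 2 was the lowest in 3 of 4 media with both probe sets. Array 3 was the highest in 2 of 4 with 1435330_at and in 3 of 4 with 1435331_at. The ratios at 0.5 µM were 6.19, 3.71 and 3.20 for 1435330_at and 7.12, 6.01 and 7.03 for 1435331_at on arrays 1, 2 and 3. All 24 same-number ratios of Ifi209 to Control-768 in the plot of ratios, over 2 probe sets, 2 concentrations, 2 states and 3 numbers, were above 1. Ifi209 was chosen for this rise, so the count is no support for it. Both probe sets read the same samples and each Control-768 array serves both concentrations, so these are not 24 separate observations. Without resting array 3 at 0.5 µM, the log2 difference of 1435330_at was 2.42 and that of 1435331_at 2.33. Without array 2 that of 1435330_at was 3.68.

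**Figure D2:**
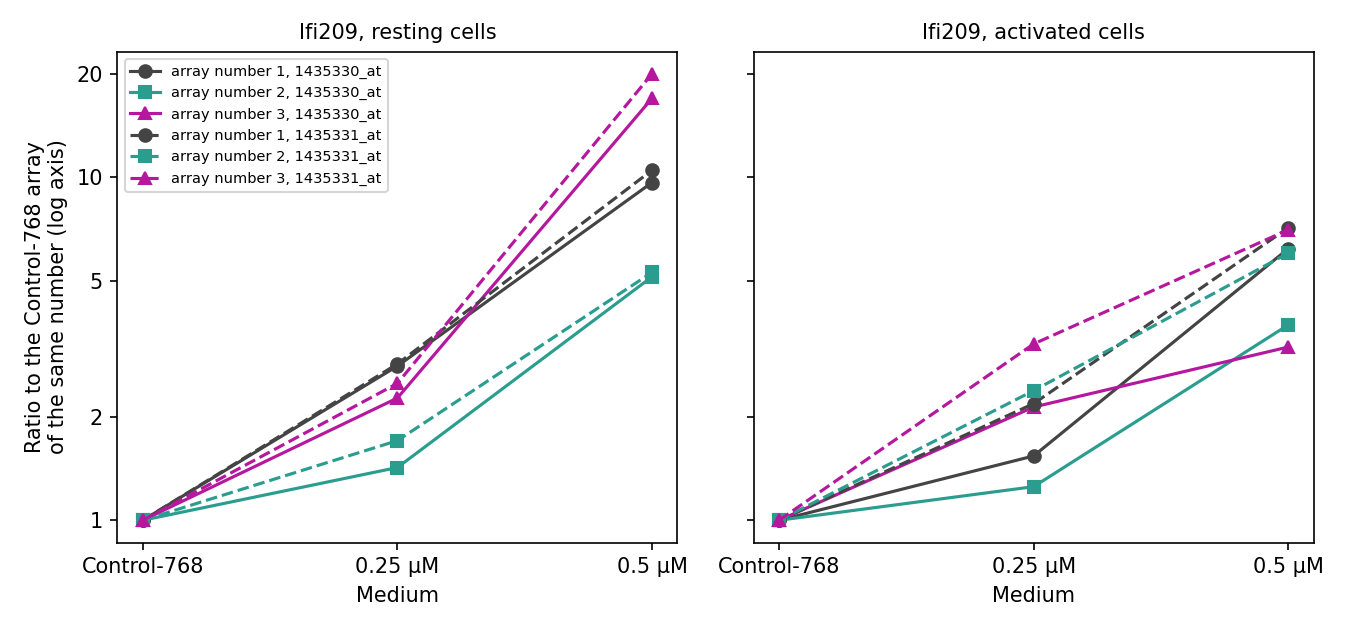
Ratio of Ifi209 intensity to the Control-768 array of the same number (vertical log axis) at 0.25 and 0.5 µM I-BET-762, resting cells left and activated cells right; colour and symbol give the array number, solid lines 1435330_at and broken lines 1435331_at. In resting cells at 0.5 µM the ratios run from 5.13 on array 2 to 20.04 on array 3.

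The arrays numbered 3 also stood apart over all probe sets. The SD of an array's log2 deviations from its group means was 0.363 on resting array 3 at 0.5 µM and 0.333 on activated array 3 at 0.5 µM, the highest of the 24, against 0.185 on the array with the lowest. Array medians ran from 37.3 to 44.3, with the highest value on that same resting array. As a measure of RNA integrity, the 3′ minus 5′ log2 value of Gapdh was 0.149 to 0.312 on the 4 activated arrays numbered 3 and at most 0.099 on every other array. Within a state, deviations from the group means of arrays with the same number correlated at 0.18 to 0.65 in all 36 pairs, so that the number marks something shared by the groups. The T cell gene Cd3d read 5841 to 9525, and summed markers of T cells (7 of 8 measured) ran from 30500 to 43110, with 37070 to 43110 in resting cells at 0.5 µM and 34880 to 35510 in Control-768. The NK list (2 of 3) reached 118 in resting cells at 0.5 µM and at most 81.6 in the other groups, and the CD8 list (2 of 2) ran from 412 to 632 in resting and 530 to 957 in activated cells. Summed markers of B cells (4 of 5) ran from 37.3 to 79.7, with Cd79a at 1 to 11.6 and Cd79b at 10.3 to 42.1. Those of macrophages (7 of 7) ran from 181 to 271, with Itgam at 1 to 22.3 and Csf1r at 75.5 to 158.5. The dendritic list, 7 of 7 genes measured, summed to 1389 to 1887 in resting cells at 0.5 µM and 1463 to 2457 in Control-768. Most of it was H2-Ab1, an MHC class II gene. On all arrays Itgax stayed at 13.03 to 44.6 and Xcr1 at 1.90 to 20.1, while Flt3 read 6.28 to 62.1 and Cd74 19.6 to 252. The part of any of these in the values of Ifi209 was not tested.

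Restimulation was the comparison whose difference left the choice of Ifi209 aside, since it sets control cells against control cells. Its SE pools the spread of all 8 groups, those with I-BET-762 included. Ifi209 fell when the T cell receptor was engaged again. Under Control-768, 1435330_at was lower by a log2 difference of -1.73 ± 0.44 (adjusted p = 0.0114 with limma and Benjamini-Hochberg adjustment over 45037 probe sets) and 1435331_at by -1.83 ± 0.56 (adjusted p = 0.0335). Under DMSO, on other arrays, the differences were -1.88 ± 0.44 (adjusted p = 0.00608, limma) and -2.09 ± 0.56 (adjusted p = 0.0149, limma). The DMSO and Control-768 arrays of the same number deviated from their group means together (r of 0.4 to 0.65 in resting and 0.27 to 0.49 in activated cells), so the DMSO values are no independent repeat. All 3 activated arrays lay below all 3 resting arrays in both media with both probe sets, a separation found at 14.8% of all probe sets under Control-768 and 15.2% under DMSO.

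Among the 5 member probe sets, 3 were called under Control-768 and 2 under DMSO, all lower after restimulation. Lower calls made up 7.02% of all probe sets under Control-768 and 7.25% under DMSO. Resting cells held 5.34 times the Ifi209 intensity of activated cells under Control-768 and 7.52 times under DMSO with 1435330_at, and 6.12 and 8.52 times with 1435331_at. Cells primed with I-BET-762 also read lower after restimulation, with resting means 7.09 times the activated ones at 0.25 µM and 14.8 times at 0.5 µM with 1435330_at, and 5.39 and 12.8 times with 1435331_at. All these ratios rest on activated means near the added constant in the control media, where the background is not known, so they are imprecise. At 0.5 µM the activated means of 81.6 and 123 were near the resting Control-768 means of 103 and 110.

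These calls rested on few arrays and on the added constant. Leaving out resting Control-768 array 3 ended both Ifi209 calls under Control-768 (adjusted p = 0.0523 and 0.142, limma) and that of Ifi203 (adjusted p = 0.0543, limma), and with a constant of 64 the adjusted p of Ifi209 was 0.0996 and 0.187 under Control-768 and 0.0881 and 0.128 under DMSO. At 1435331_at the call also ended without resting Control-768 array 1 (0.0584) or activated Control-768 array 1, 2 or 3 (0.0819, 0.0977 and 0.0631), and under DMSO without activated array 1 (0.0631) or resting array 3 (0.0685), all as adjusted p in limma. That of Ifi203 ended without resting array 1 (0.101) and activated arrays 1 and 2 of Control-768 (0.119 and 0.0506), as adjusted p in limma. Ifi209 was lower after restimulation in every alternative run, in both media.

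The test called no difference between Control-768 and DMSO at Ifi209. In resting cells the log2 difference of Control-768 from DMSO was 0.16 (95% interval -0.76 to 1.08) at 1435330_at and -0.06 (-1.23 to 1.12) at 1435331_at. In activated cells it was 0.32 (-0.61 to 1.24) and 0.21 (-0.97 to 1.39). With the array number as a block within each state the values were the same, with an SE of 0.27 and 0.32 and an adjusted p of 1 in limma. In activated cells 1435330_at was higher in Control-768 in all 3 same-number pairs, and the groups did not overlap, as at 2.62% of all probe sets; 1435331_at overlapped. The unblocked intervals, whose SE also pools all 8 groups, still allow changes of over 1 on the log2 scale. In limma 0 of the 5 member probe sets passed in either state, with 0% of all 45037 probe sets called, and the adjusted p was 1 throughout. The difference of the restimulation change between DMSO and Control-768 was also called at 0 of 5. At an unadjusted p under 0.05, limma counted 0 of 5 member probe sets in resting and 1, Ifi203, in activated cells and in the difference of restimulation, beside 1125, 896 and 960 of all 45037.

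Aim2, the cytosolic DNA sensor, did not follow Ifi209. Its resting intensities were 134, 405 and 93.4 in DMSO, 124, 133 and 108 in Control-768, 126, 89.8 and 91.0 at 0.25 µM, and 114, 120 and 172 at 0.5 µM. Resting DMSO array 2 stood alone at 405, and the next highest of the 24 arrays was 172. Activated cells read 116, 106 and 115 in DMSO, 103, 109 and 90.5 in Control-768, 99.2, 98.3 and 88.3 at 0.25 µM, and 84.7, 96.1 and 48.8 at 0.5 µM. At 0.5 µM Aim2 was highest on array 3 in resting cells, as both Ifi209 probe sets were, and lowest on array 3 in activated cells, where 1435331_at was highest on array 3 and 1435330_at on array 1.

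The difference of Aim2 from Control-768 at 0.5 µM was 0.13 ± 0.32 (SE, log2) in resting and -0.37 ± 0.32 in activated cells, and at 0.25 µM it was -0.23 and -0.07. With DMSO in place of Control-768 the resting values were -0.35 at 0.5 µM and -0.70 at 0.25 µM, since the DMSO mean holds the array at 405. Restimulation gave -0.24 ± 0.32 under Control-768 (adjusted p = 0.722, limma) and -0.57 ± 0.32 under DMSO (adjusted p = 0.263, limma). The DMSO value rested on resting array 2: without it the difference was 0.00 (adjusted p = 1, limma), and without resting array 3 it was -0.97 (adjusted p = 0.0374, limma).

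Ifi203, which encodes a p200 protein of the nucleus, kept to a narrow range at its own probe set, from 39.97 to 72.7 over the 24 arrays. Resting cells read 58.8, 53.6 and 65.3 in DMSO, 71.9, 62.9 and 65.1 in Control-768, 63.7, 61.4 and 64.2 at 0.25 µM, and 65.0, 58.1 and 72.7 at 0.5 µM. Activated cells read 57.1, 68.1 and 54.3 in DMSO, 39.97, 48.0 and 51.7 in Control-768, 54.9, 60.6 and 65.4 at 0.25 µM, and 46.2, 66.1 and 55.1 at 0.5 µM. The activated Control-768 arrays were low as a group, and the other groups overlapped each other.

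Restimulation lowered Ifi203 under Control-768 by a log2 difference of -0.41 ± 0.12 (adjusted p = 0.0257, limma) and gave 0.01 ± 0.12 under DMSO (adjusted p = 0.977, limma). The call under Control-768 was lost with only the compared groups in the fit (adjusted p = 0.0849, limma). At 0.5 µM I-BET-762 the difference from Control-768 was -0.03 ± 0.12 in resting and 0.19 ± 0.12 in activated cells.

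Ifi204, the gene of the p204 protein, read 1.22 to 15.6 on all 24 arrays, below the added constant of 16 throughout. Its group means ran from 4.36 ± 4.46 (SD, n = 3) in activated Control-768 to 9.90 ± 5.25 in resting DMSO. The log2 differences from Control-768 at 0.5 µM were -0.04 ± 0.20 and 0.21 ± 0.20, and restimulation gave -0.22 (adjusted p = 0.56, limma) and -0.01 (adjusted p = 0.987, limma). Array 2 was the highest and array 1 the lowest in 4 of 4 resting groups. At these intensities a change in Ifi204 was not detectable.

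**Figure D3:**
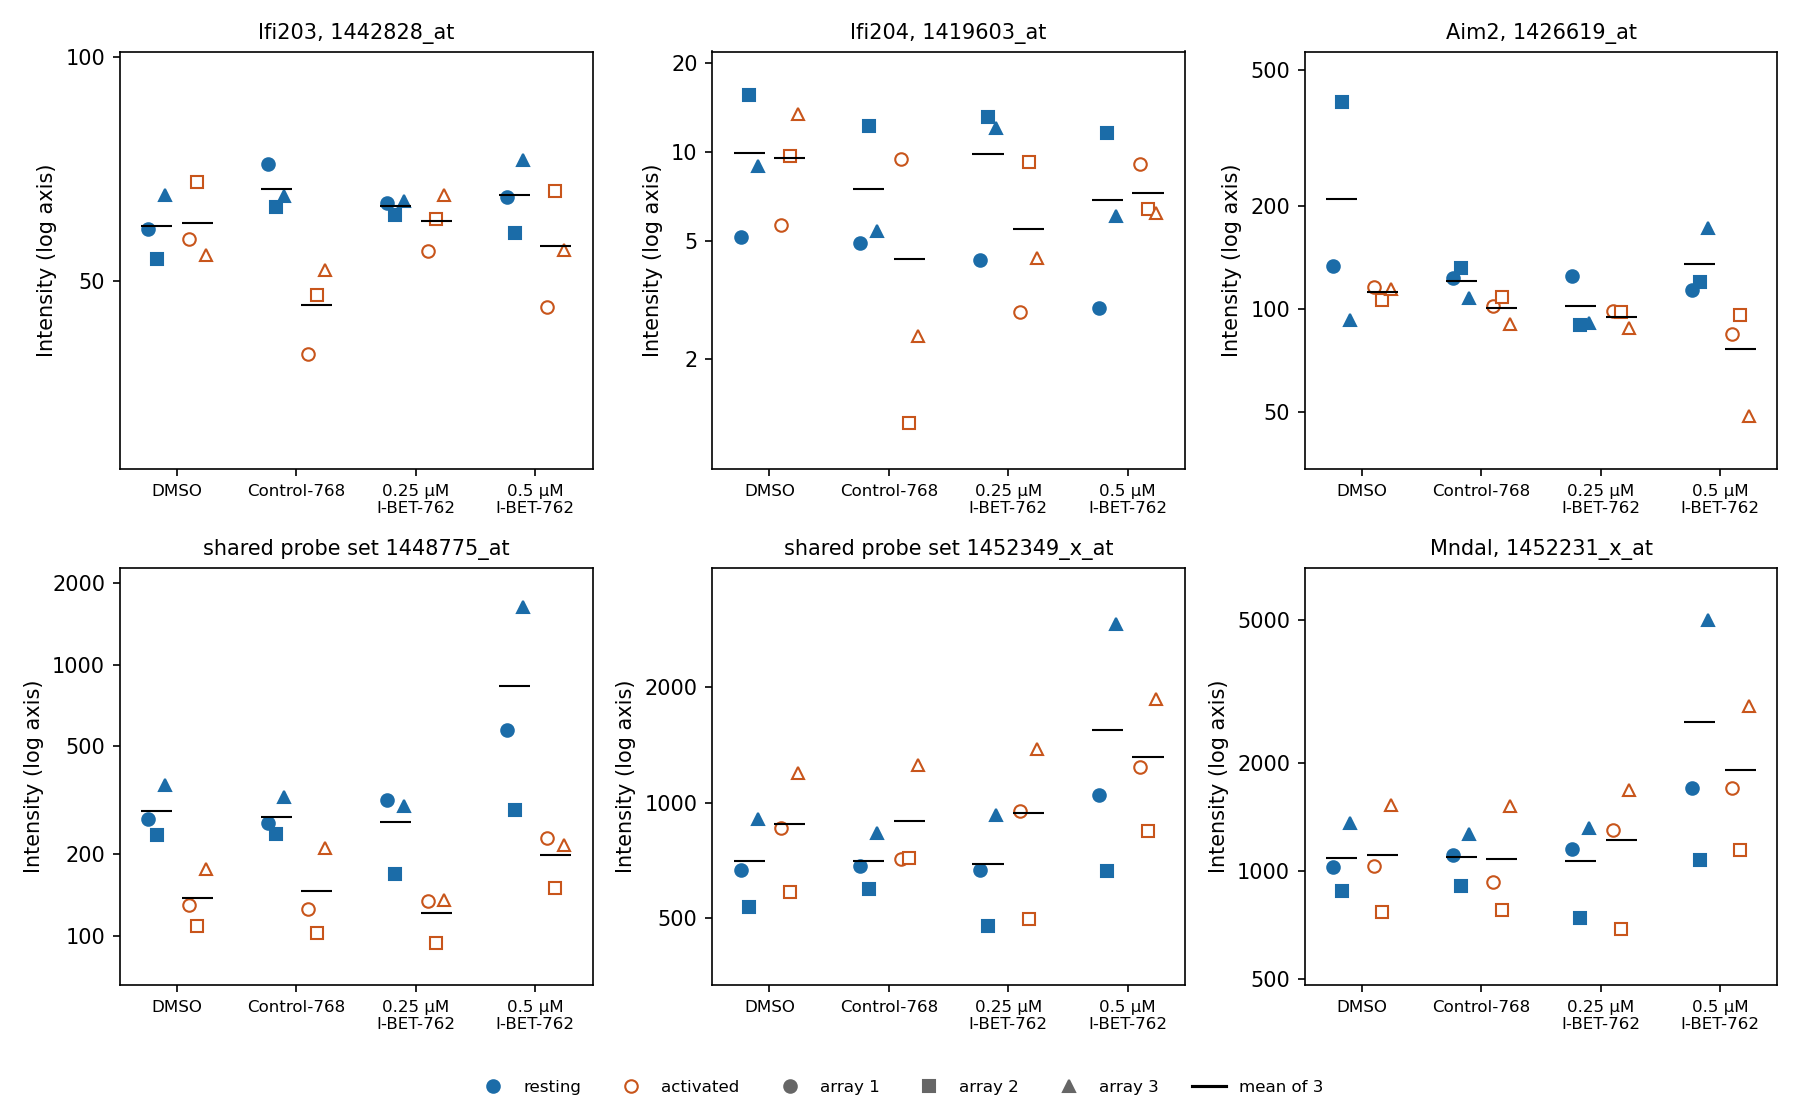
Intensity on each array (vertical log axes, with a range of their own in each panel) of Ifi203, Ifi204, Aim2, 2 probe sets that name a member together with other genes, and Mndal, drawn as filled symbols for resting and open symbols for activated cells, with the array number as shape and the mean of 3 as a line. Aim2 shows the resting DMSO array at 405, and array 3 is highest at resting 0.5 µM in the 3 lower panels.

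The probe sets that name a member with other genes carried a signal that the members' own probe sets for Ifi203 and Ifi204 did not, and it cannot be given to any gene of the family. Probe set 1448775_at, which names Ifi203 among others, read 269, 236 and 360 in resting DMSO, 261, 236 and 325 in Control-768, 318, 169 and 300 at 0.25 µM, and 575, 292 and 1630 at 0.5 µM. The order of the arrays at 0.5 µM was that of Ifi209, and array 2 lay within the range of the controls. Over the 24 arrays its Pearson r with Ifi209 1435330_at was 0.908, and 0.899 after group means were removed. These points share arrays and array numbers.

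The like probe set 1451567_a_at read 221, 183 and 307 in resting Control-768 and 552, 308 and 1636 at 0.5 µM. Relative to Control-768, the resting log2 differences at 0.5 µM were 1.22 ± 0.41 for 1448775_at and 1.44 ± 0.54 for 1451567_a_at, and the activated ones 0.43 and 0.87. For the pair that names Ifi205 with other PYHIN genes, 1452348_s_at and 1452349_x_at, resting values at 0.5 µM were 1125, 675 and 3078, and 1049, 662 and 2929. Their differences from Control-768 were 0.90 ± 0.46 and 0.85 ± 0.45 in resting and 0.56 and 0.53 in activated cells. The last shared probe set, 1425008_a_at, was dim, at 1.97 to 25.4.

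Of 10 other PYHIN genes looked up, 4 have a probe set of their own. Mndal, which encodes a p200 protein and lies between the pseudogene Ifi203-ps and Ifi211, was the clearest of them. At 1426906_at its resting intensities were 699, 600 and 771 in Control-768, 741, 492 and 829 at 0.25 µM, and 1067, 713 and 3759 at 0.5 µM. Set against the Control-768 array of the same number, resting cells at 0.5 µM held 1.53, 1.19 and 4.87 times as much, and activated cells 2.02, 1.67 and 2.42 times. The high value on array 3 was shared with Ifi209, and arrays 1 and 2 were also above their partners.

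The log2 difference of Mndal at 0.5 µM was 1.03 ± 0.49 at 1426906_at (adjusted p = 0.556, limma) and 0.94 ± 0.45 at 1452231_x_at (adjusted p = 0.576, limma) in resting cells. In activated cells it was 0.99 (adjusted p = 0.741, limma) and 0.77 (adjusted p = 0.835, limma). With the array number as a block within each state, 1452231_x_at passed in resting cells (adjusted p = 0.0459, limma with the replicate block) and 1426906_at did not (adjusted p = 0.0597, limma with the replicate block). The brighter probe sets shared by several PYHIN genes had the same order of arrays in resting cells at 0.5 µM. Whether the Mndal probe sets also read related genes was not tested. In activated cells the blocked values were 0.145 and 0.0975 as adjusted p in limma. At 0.25 µM the blocked differences were between -0.06 and 0.26 in both states with both probe sets.

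Ifi202b, Ifi207 and Ifi213 were dim. Ifi202b read 1 to 21.1, Ifi207 1 to 13.1 and Ifi213 1.84 to 57.9 at 1437636_at and 2.87 to 18.8 at 1444405_at. The value of 57.9 at Ifi213, the gene next to Ifi209, was again resting array 3 at 0.5 µM, beside 10.1 and 4.77 on arrays 1 and 2. None of these 3 genes passed the test at 0.25 or 0.5 µM in either state, with or without the block. In the order along chromosome 1, Ifi213 and Ifi207 lie on either side of Ifi209, with Ifi208 unmeasured between. Ifi213 and Ifi207 stayed under 0.4 on the log2 scale in all 4 comparisons. Their mean intensities lay below the added constant, which shrinks any difference on this scale. Whether these neighbours changed along with Ifi209 therefore cannot be read from their values.

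**Figure D4:**
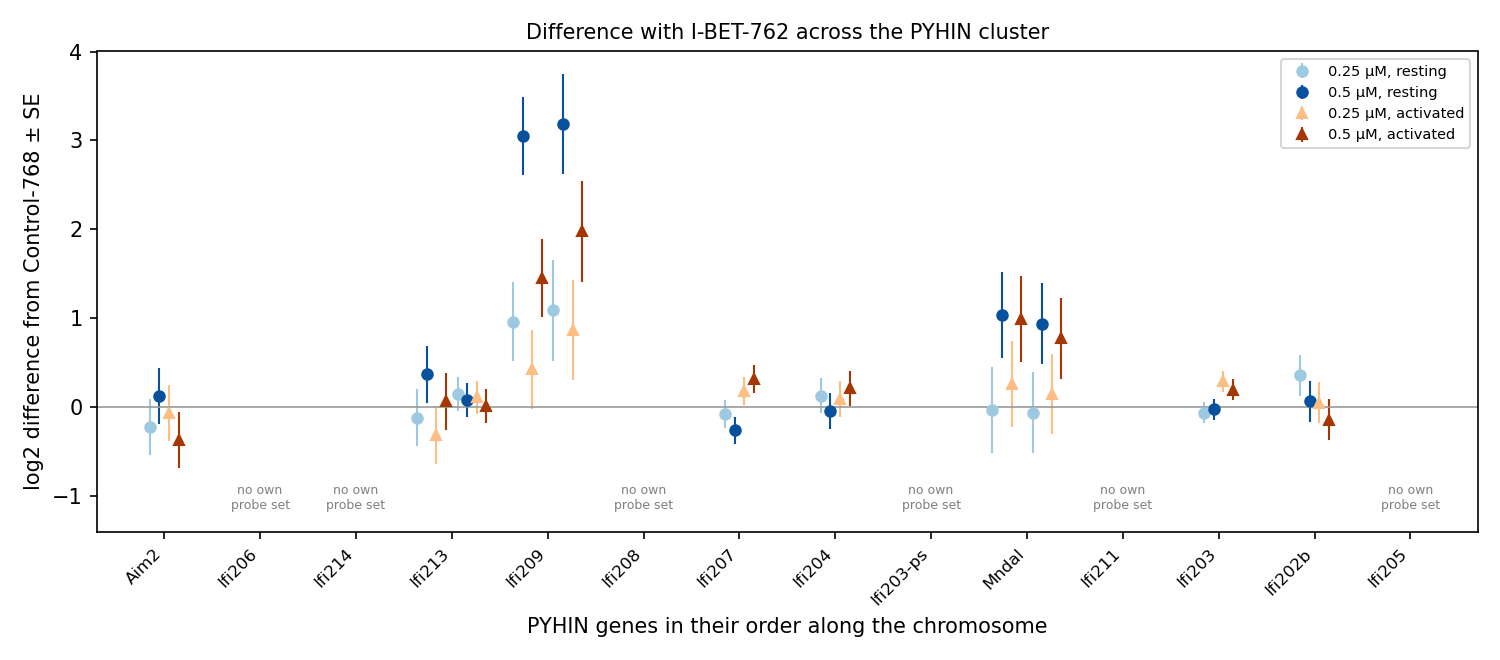
Log2 difference from Control-768 with its SE for each probe set of a PYHIN gene, in the order of the genes along chromosome 1 (ordinal axis), for 0.25 and 0.5 µM in resting cells (circles) and activated cells (triangles); 2 clusters of points for a gene are 2 probe sets. Ifi209 stands at 3.05 and 3.18 in resting cells at 0.5 µM and Mndal at 1.03 and 0.94, and Aim2, Ifi204 and Ifi203 lie between -0.37 and 0.29.

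Genes that act with the PYHIN proteins or respond to interferons with them were followed as a list of 104, of which 88 were measured, with 1 probe set a gene. At 0.5 µM in resting cells 1 rose and 1 fell in limma, against 0.357% higher and 0.803% lower among 18193 genes, and the median difference of the list was 0.03 beside 0.00 for all genes. Zbp1, a sensor of Z-form nucleic acids, rose from 503 ± 110 to 1119 ± 220 (SD, n = 3), a log2 difference of 1.13 ± 0.24 (adjusted p = 0.0236, limma). Isg20, an interferon-induced exonuclease, fell from 783 ± 123 to 271 ± 92.3, a difference of -1.53 ± 0.27 (adjusted p = 0.00558, limma). Both calls ended with only the compared groups in the fit, where 0 of 88 passed. In activated cells at 0.5 µM 0 of 88 passed in limma, with a median of -0.12 and 0.181% of all genes called higher and 0.451% lower. At an unadjusted p under 0.05 limma counted 17 of the 88 (19.3%) in resting cells at 0.5 µM, beside 10.5% of all genes, and 16 (18.2%) in activated cells, beside 7.80%. At 0.25 µM 0 passed in limma in either state, and 6 (6.82%) in resting and 3 (3.41%) in activated cells had an unadjusted p under 0.05, near the 4.02% and 3.90% of all genes. Of all genes 0.0165% were called higher and 0.0385% lower there in resting cells, and 0.0165% and 0.033% in activated cells.

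With the array number as a block within each state, more of the list passed. In resting cells at 0.5 µM 5 genes rose and 8 fell of 88, with 1.59% of all genes called higher and 2.63% lower under the same block. Mndal counts among the 5 by 1452231_x_at, while its other probe set did not pass. Besides Zbp1 and the Mndal probe set above, the genes that rose were Socs3, an inhibitor of cytokine receptor signalling (0.97 ± 0.16, adjusted p = 0.00247), and the interferon-gamma-induced GTPases Gbp2 (0.63 ± 0.14, adjusted p = 0.0202) and Iigp1 (0.89 ± 0.22, adjusted p = 0.0382). The other 7 that fell were the GTPase gene Gbp6 (-1.35), the gamma receptor chain Ifngr2 (-0.84), the pore-forming effector Gsdmd (-0.40), and 4 interferon-stimulated genes.

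These 4 were the RNA sensor Ifih1 (-1.41 ± 0.22), the RNase L activator Oas3 (-1.31 ± 0.15), the secreted glycoprotein Lgals3bp (-1.67 ± 0.27) and the virus tether Bst2 (-0.55 ± 0.14). With Isg20, 5 of 32 type I interferon-stimulated genes fell and 0 rose. In the same cells Ifi209 stood at a log2 difference of 3.05 and 3.18. It was chosen for its rise and these 5 genes for their fall, so their opposite signs are no finding. The whole list of 32 had a median of -0.06, with 14 genes above 0 and 18 below. Without the block Isg20 was the 1 gene of the 32 that was called. The members themselves carry no test in this comparison.

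In activated cells at 0.5 µM, with the block, 1 gene of 88 rose and 9 fell, against 0.984% and 1.68% of all genes. Zbp1 rose (0.96 ± 0.17, adjusted p = 0.00516, limma with the block). Of 9 GTPases induced by interferon gamma 4 fell, Irgm1 (-1.75 ± 0.24), Gbp6 (-1.47 ± 0.23), Irgm2 (-1.33 ± 0.29) and Iigp1 (-1.08 ± 0.22). The transcription factor Irf1 (-1.18 ± 0.19), Ifngr2 (-0.79 ± 0.19), Lgals3bp (-1.78 ± 0.27), Oas3 (-1.08 ± 0.15) and the cytokine gene Il1a (-2.13 ± 0.51) fell as well. At 0.25 µM with the block Oas3 alone fell in resting cells (-0.81 ± 0.15, adjusted p = 0.0494, limma with the block, with 0.0715% of all genes called higher and 0.225% lower), and 0 of 88 passed in activated cells, with 0.0989% and 0.214%.

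**Figure D5:**
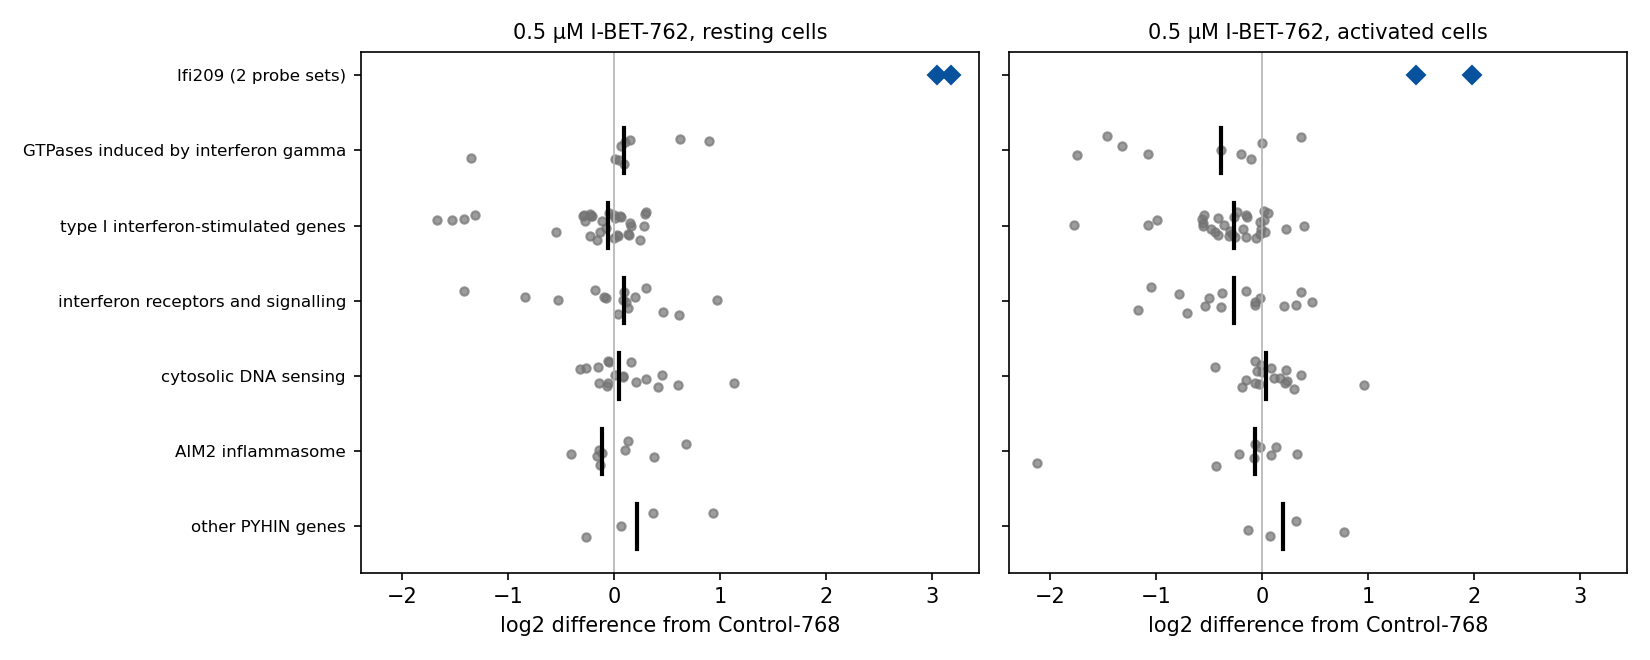
Log2 difference of 0.5 µM I-BET-762 from Control-768 in resting cells (left) and activated cells (right) for each measured gene of 6 lists (grey points, jittered vertically), with the median of each list as a black bar and both Ifi209 probe sets as blue diamonds. Ifi209 lies at 3.05 and 3.18 in resting cells, and the type I interferon-stimulated genes have medians of -0.06 and -0.26.

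Restimulation moved the same list in both directions. Under Control-768 8 of 88 rose and 16 fell, with 8.10% of all genes higher and 10.2% lower. Of 32 type I interferon-stimulated genes 10 fell and 0 rose, among them the RNA helicase genes Ddx58 (-1.02 ± 0.20, adjusted p = 0.00204) and Dhx58 (-1.60 ± 0.32, adjusted p = 0.00217) and the nuclear body gene Sp100 (-0.98 ± 0.19, adjusted p = 0.00163), all in limma. Ifng, the interferon made by Th1 cells and not one of the 88, rose by 4.19 ± 0.41, from 958 ± 448 to 16630 ± 992. The interferon-gamma-induced factor Irf8 rose by 1.96 ± 0.18 and the kinase gene Jak2 by 1.70 ± 0.29, while the receptor chain Ifnar2 fell by 0.95. In the inflammasome list Casp4, an inflammatory caspase, rose by 1.05 ± 0.16, Il1a by 2.69 ± 0.63, and Pycard, which encodes the ASC adaptor of AIM2, fell by 0.72. Of 18 cytosolic DNA sensing genes 3 rose and 2 fell, all in limma. Among them were Prkdc (-1.29 ± 0.22, adjusted p = 0.000658, limma), Mre11a (-0.72 ± 0.15, adjusted p = 0.00268, limma) and Dhx9 (0.53 ± 0.11, adjusted p = 0.00292, limma). Of 9 GTPases induced by interferon gamma 0 passed. Of 7 neighbours of the PYHIN genes on the chromosome, also outside the 88, 0 passed. Under DMSO the counts were also 8 and 16, with 8.37% of all genes higher and 10.7% lower.

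The genes most like Ifi209 were sought by Pearson r with 1435331_at over the 24 arrays, with 1 probe set a gene. They were Epsti1, an interferon-responsive gene (0.943), Plaat3, a phospholipase (0.939), Bscl2, which encodes the lipid droplet protein seipin (0.930), Laptm5, a lysosomal protein of blood cells (0.929), and Trp53inp1, a stress-induced p53 target (0.925). Epsti1 had resting means of 3316 in Control-768, 3707 at 0.25 µM and 5040 at 0.5 µM, and activated means of 1707, 2021 and 2561. After the mean of each group was removed, the closest were Epsti1 again (0.929), the antiproliferative gene Btg1 (0.927), the acid-sensing receptor gene Gpr65 (0.924), the ubiquitin ligase gene Rnf145 (0.914) and the protease gene Furin (0.913). The arrays share state, medium and array number, and these coefficients describe them only.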

How the data were processed

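The authors deposited 1 linear intensity per probe set for each of 24 Affymetrix arrays. Per the labels' protocols, RNeasy-purified RNA went through 2 rounds of MessageAmp amplification and biotin labelling. The summary and normalization method behind these intensities: not given in the sources used here. From the deposited intensities log2(intensity + 16) was computed and all 24 arrays entered 1 model of 8 group means in limma 3.58.1 (R 4.3.3). P-values were adjusted over 45037 probe sets by the Benjamini-Hochberg method and calls made at 0.05, two-sided. Lists use 1 probe set a gene (18193 genes), the brightest. P-values measure the spread between 3 biological replicates, pooled over all 8 groups, and this number limits the precision. The pool includes the groups with I-BET-762 also where 2 control groups are compared. For Ifi209 1435330_at the log2 SD was 1.26 in resting cells at 0.5 µM, and 0.36 in resting and 0.12 in activated Control-768. The members and lists were chosen with earlier results of these data known. Named were all member probe sets, and in each list up to 3 genes that passed, taken by smallest adjusted p. For restimulation the genes of the lists are named under Control-768 only. Genes called only with the block were named after their values were seen. Array numbers paired arrays within a state (all 36 correlations of deviations over 0.1, lowest 0.18). Across states the pairing was weaker, with 22 of 48 same-number pairs over 0.1, beside 1 of 96 pairs of unlike numbers. The block within each state was added after the data were seen. The model was tested on simulated data with independent noise on each array. Deviations shared by arrays of the same number were not simulated. Promoters came from RefSeq (GRCm38.p6).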

Additional observations from a re-analysis of the deposited data

Results flagged for a closer look

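At 0.25 µM I-BET-762, the probe set of Ifi203 differed from Control-768 with opposite sign in the 2 states. Every resting array lay below its Control-768 partner of the same number and every activated array above it. The log2 differences were -0.06 in resting and 0.29 in activated cells. Against DMSO they were 0.07 and 0.01, so the opposite signs were seen with Control-768 alone. The activated Control-768 mean was 46.55, beside activated means of 59.8 in DMSO and 60.3 at 0.25 µM. The difference between the states was not tested.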

How the results depend on the processing

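Restimulation kept its direction at Ifi209 in every alternative, but not its calls. With log2(intensity + 64) 1 of 5 member probe sets passed under Control-768 and 0 under DMSO, and with 1 probe set a gene 1 of 4 passed under DMSO. Leaving out each array in turn gave 0 to 3 under Control-768 and 1 to 2 under DMSO. The replicate block over both states left these counts at 3 and 2. Resting and activated arrays of the same number in a control medium correlated only weakly (0.07 to 0.15), so this says little. Control-768 against DMSO and the difference of restimulation stayed at 0 in each alternative run. For the list of 88 genes at 0.5 µM in resting cells, 2 passed, 7 with the replicate block over both states, 13 with the block within each state, 0 with only the compared groups, 8 without the arrays numbered 3, and 1 to 3 without single arrays. In activated cells 0 passed, 2 with the block over both states, 10 within each state, 9 without the arrays numbered 3, and 0 to 1 without single arrays. At 0.25 µM 0 passed, 1 with the block within each state in resting cells, and 2 (resting) and 3 (activated) without the arrays numbered 3. The cause of these moves was not tested. Signal limits Ifi204, Ifi202b, Ifi207 and Ifi213, whose values lie near the added constant, and Ifi209 in activated control cells, where the constant of 64 moved the difference at 0.5 µM to 0.80 and 1.15.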
